A study of Mus musculus with 2 samples.

Results

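Methionine salvage and polyamine synthesis were followed in mouse kidney through 10 genes, of which 7 were measured: Odc1, Srm, Mtap, Mri1, Apip, Enoph1 and Adi1. Each of these 7 had 1 probe set that carried its gene symbol and no other, among 22180 genes with such a probe set. Sms was listed only in a probe set shared with its pseudogene Sms-ps, and no probe set of the annotation used here carried Mat2a or Amd1, so these last genes were not analysed here. The members were chosen by their place in the pathway, and the pathway was selected on the Enoph1 values, which were lower in the knockout pool. The Enoph1 difference is therefore a description and supports nothing by itself.

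The tested mice carried a systemic knockout of Iah1, a gene for an esterase-like hydrolase, and were set against Iah1-WT mice. All were males that had eaten standard chow until 6 weeks of age, then a high-fat diet for 12 weeks, and were killed after 4 hours without food. Kidney RNA of 3 mice was combined for 1 array per genotype, so there is 1 value for the Iah1-KO pool and 1 for the Iah1-WT pool. No test between the genotypes is possible, there is no replicate check on any difference, and the spread between mice is unknown.

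Polyamines are small positively charged molecules that bind nucleic acids and are needed for growth and translation. Ornithine decarboxylase (Odc1) makes putrescine from ornithine, and spermidine synthase (Srm) and spermine synthase (Sms) then add aminopropyl groups. These groups come from S-adenosylmethionine, which Mat2a makes and Amd1 decarboxylates. Each addition releases methylthioadenosine, which the salvage enzymes Mtap, Mri1, Apip, Enoph1 and Adi1 turn step by step into the keto acid of methionine. Mouse kidney is known for a high Odc1 level in the proximal tubule of males, where androgens raise it.

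Values are log2 RMA values, the authors' background-subtracted and quantile-normalised signal of a probe set. A difference is the Iah1-KO value minus the Iah1-WT value on that scale. A gene counted as expressed when its higher value was at least 6, the expression floor, which 7671 genes reached. Their median difference was 0.01, and the middle 95% lay between -0.30 and 0.35. The tissue label was checked with markers. All 15 proximal tubule markers passed the floor and had a median difference of 0.02, whereas 0 of 5 adrenal cortex and 0 of 4 measured urothelial markers reached it. Of 5 adipocyte markers 1 did, Fabp4, at 8.34 in the Iah1-KO pool and 8.40 in the Iah1-WT pool. Iah1 itself was at 3.60 in the Iah1-KO pool, against 9.09 in the Iah1-WT pool, a difference of -5.49. The array of the Iah1-KO pool had a median of 4.03, so the gene's value there is not shown to be above background. Neither the deleted part nor the position of the probes is known from the labels. Wherever the probes lie, the Iah1 signal was far lower in the Iah1-KO pool, which matches the labels of the pools. Which part of the gene was deleted cannot be read from this value.

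Among the members, Enoph1 stood apart, and the other 6 measured genes differed little. Their differences ranged from -0.13 (Apip) to 0.21 (Mri1). Of the 6 members at or above the floor, 1 was lower by 1.5-fold or more in the Iah1-KO pool, and this was Enoph1. Over all 7671 genes 16 were at least 1.5-fold lower, which is 0.209%, and 17, or 0.222%, were at least 1.5-fold higher, as 0 members were. The choice of the pathway used this contrast, so nothing is read from the count. The members at or above the floor had a median difference of -0.05, with 3 below 0 and 3 above (Mtap and Adi1 by no more than 0.01), while 47.6% of all expressed genes were below 0 and 52.4% above. Over all 7 measured members the median was 0.00.

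**Figure D1:**
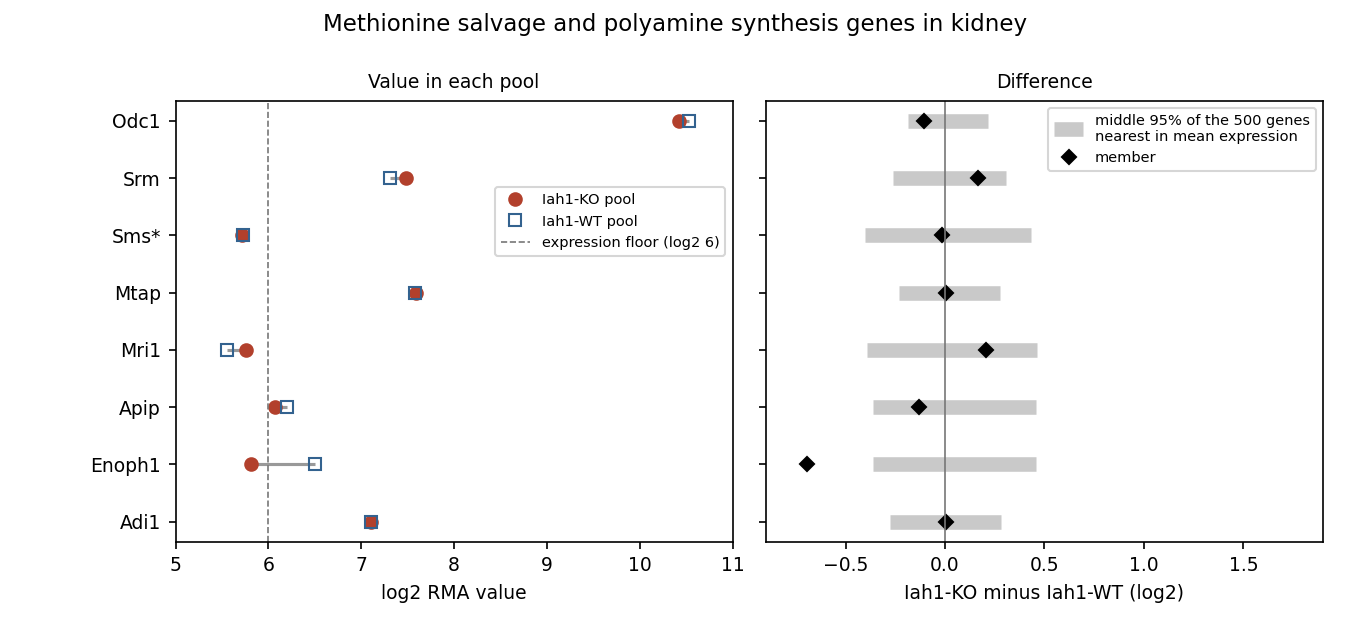
Log2 RMA values of the members in the Iah1-KO pool (filled circles) and the Iah1-WT pool (open squares) on the left, and the Iah1-KO minus Iah1-WT difference on the right with the middle 95% of the 500 genes of nearest mean expression as grey bars. The difference of Enoph1 (-0.69) lies outside its bar and those of the other members inside. The asterisk marks Sms, whose probe set also carries Sms-ps.

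The polyamine branch begins with Odc1, the rate-limiting enzyme of the pathway. Odc1 (probe set 17274294, chromosome 12) was at 10.43 in the Iah1-KO pool and 10.54 in the Iah1-WT pool. The difference of -0.11 corresponds to a 7.22% lower signal in the Iah1-KO pool. It lay within the middle 95% of the 500 genes of nearest mean expression, from -0.19 to 0.22. Odc1 was thus far above the floor in both pools and nearly the same in each.

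Srm, which makes spermidine from putrescine, was at 7.48 in the Iah1-KO pool and 7.31 in the Iah1-WT pool (probe set 17421694, chromosome 4). Its difference of 0.17, a 12.3% higher signal, ran opposite in sign to that of Odc1. Genes of similar expression had a middle 95% from -0.26 to 0.30, and Srm lay inside it. The probe set shared by Sms, the spermine synthase gene, and its pseudogene was below the floor in both pools, at 5.71 in the Iah1-KO and 5.73 in the Iah1-WT pool, and the transcripts cannot be told apart there. The branch therefore showed small differences of both signs.

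Methionine salvage opens with Mtap, the phosphorylase that splits adenine from methylthioadenosine. Mtap (probe set 17415380, chromosome 4) was at 7.59 in the Iah1-KO pool and 7.58 in the Iah1-WT pool, a difference of 0.00. Mri1, the isomerase of the next step (probe set 17511102, chromosome 8), was at 5.76 in the Iah1-KO pool and 5.55 in the Iah1-WT pool. It stayed below the floor in both, and its difference of 0.21 lay inside the range of similar genes, from -0.39 to 0.46. Mri1 is the only member that was measured with a probe set of its own and did not reach the floor.

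Apip, the dehydratase that follows Mri1 and is also known as an inhibitor of the apoptosome (probe set 17373721, chromosome 2), was close to the floor at 6.07 in the Iah1-KO pool and 6.20 in the Iah1-WT pool. Its difference was -0.13. Adi1, the acireductone dioxygenase that acts after Enoph1 (probe set 17274649, chromosome 12), was at 7.11 in the Iah1-KO pool and 7.10 in the Iah1-WT pool, a difference of 0.01. These enzymes, just before and just after Enoph1 in the pathway, had smaller differences than Enoph1. The pathway was selected on the Enoph1 values, so nothing is read from this. Of the 5 salvage genes, 2 were below 0 and 3 above, with a median of 0.00, but Mtap and Adi1 lay so near 0 that centring the differences on their median or a loess correction put them below it.

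Enoph1 encodes the enolase-phosphatase that converts the product of Apip into the acireductone used by Adi1. Its probe set (17439563, chromosome 5) was at 5.81 in the Iah1-KO pool and 6.51 in the Iah1-WT pool. The difference of -0.69 is a 1.62-fold, or 38.2%, lower signal in the Iah1-KO pool. In bulk kidney RNA, fewer cells that express a gene and less RNA per cell cannot be told apart. Ordered from the most negative difference, Enoph1 was number 10 of the 7671 genes, and by size in either direction it was number 22. These ranks depend on the floor, as Enoph1 does not reach one of log2 7. The pathway was selected on this value, so nothing is read from them.

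Enoph1 is a dim gene, and its value stands beside a wider spread than that of bright genes. The 500 genes nearest to it in mean expression had a middle 95% from -0.36 to 0.46 and a robust SD (scaled median absolute deviation) of 0.18. The same SD was 0.10 near Odc1. Only the Iah1-WT value of Enoph1 reached the floor, as for 186 genes in all. A gene that enters in this way has to be lower in the Iah1-KO pool, and the median difference of the 186 was -0.23. Of them 7 were at least 1.5-fold lower, Enoph1 and Iah1 included. With 1 probe set for the gene, no other probe set could be set against it.

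**Figure D2:**
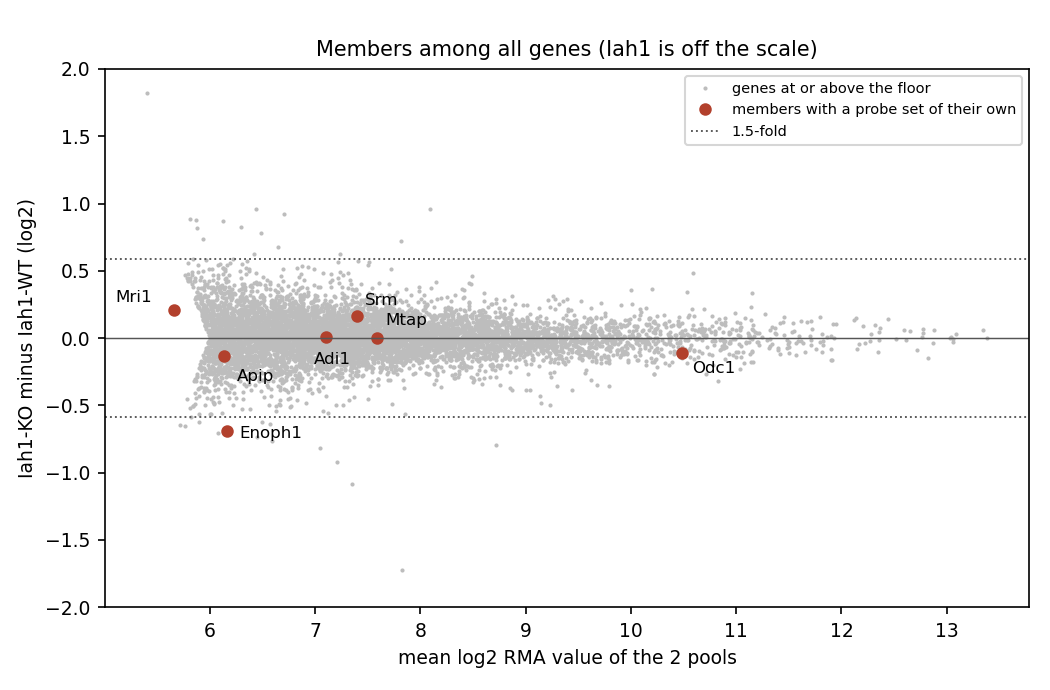
Iah1-KO minus Iah1-WT difference against the mean log2 RMA value of both pools for the 7671 genes at or above the floor (grey) and the 7 measured members (red). Dotted lines mark 1.5-fold. Enoph1 lies below the lower line at the dim end of the plot and the other members near 0; Mri1 is below the floor, and Iah1 lies outside the axis.

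The start regions of Enoph1 and Apip are shown because both genes lie head to head with a neighbour on the array whose value can be set beside theirs. The sequences are RefSeq windows (assembly GRCm38.p6) from 250 bases before to 50 bases after the annotated start, printed 5′ to 3′ on the strand of the member. In the Enoph1 window, chr5:100039744-100040043 on the plus strand, capitals mark an E-box, CACGTG, the recognition motif of MYC-family factors. In the Apip window, chr2:103073425-103073724 on the plus strand, capitals mark the 163 bases from the start of Pdhx to the start of Apip.
Enoph1: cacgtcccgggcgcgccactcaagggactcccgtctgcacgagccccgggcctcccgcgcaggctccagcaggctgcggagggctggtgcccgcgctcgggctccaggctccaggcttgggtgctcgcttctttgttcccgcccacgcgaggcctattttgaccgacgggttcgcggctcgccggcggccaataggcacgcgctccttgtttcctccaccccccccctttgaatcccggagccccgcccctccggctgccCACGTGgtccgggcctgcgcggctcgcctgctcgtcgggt
Apip: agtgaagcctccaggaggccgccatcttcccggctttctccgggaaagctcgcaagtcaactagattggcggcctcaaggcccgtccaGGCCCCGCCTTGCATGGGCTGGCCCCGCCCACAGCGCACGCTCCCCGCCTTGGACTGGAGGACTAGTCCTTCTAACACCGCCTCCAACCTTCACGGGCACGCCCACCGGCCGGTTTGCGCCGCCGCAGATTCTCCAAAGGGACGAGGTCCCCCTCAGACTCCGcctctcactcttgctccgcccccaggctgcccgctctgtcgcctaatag

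The E-box of Enoph1 begins 10 bases downstream of the annotated start. The motif reads the same on both strands. It was the only motif searched, and was looked for because Odc1 is a textbook MYC target. Windows were at hand for 8 of the 10 genes, all but Srm and Adi1, and 2 of the 8 held the motif, Enoph1 and Sms (in 1 of its 2 windows). Among all 27025 genes with a window, 8.09% held it. The Odc1 window held none, which says only that these letters are not in it. The start of Hnrnpdl, transcribed the other way, lies 772 bases from that of Enoph1, and the start of Pdhx lies 162 bases from that of Apip.

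The neighbours of Enoph1 on chromosome 5 differed in both directions. Hnrnpdl, the RNA-binding protein gene that starts beside Enoph1, was at 7.47 in the Iah1-KO pool and 7.65 in the Iah1-WT pool, a difference of -0.18. Its relative Hnrnpd was at 8.41 in the Iah1-KO pool and 8.75 in the Iah1-WT pool, a difference of -0.34 against a robust SD of 0.11 near its expression; a dimmer probe set of Hnrnpd, below the floor, differed by 0.04. On the other side, Tmem150c, a membrane protein gene on the opposite strand, was at 6.25 in the Iah1-KO pool and 5.67 in the Iah1-WT pool. Its difference of 0.58 was of similar size to that of Enoph1 and opposite in sign. Farther on, Sec31a, a coat protein of secretory vesicles, differed by 0.09 and Lin54, a cell cycle regulator, by -0.01. The remaining protein-coding neighbour, 4930524J08Rik, had no probe set of its own here. A dim probe set that Tmem150c shares with Tmem150cos differed by -0.13. Enoph1 and Tmem150c lie next to each other. Tmem150c passed the floor only in the Iah1-KO pool and Enoph1 only in the Iah1-WT pool. That fixes the opposite signs of their differences, so nothing is read from the contrast.

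Apip and its head-to-head partner were similar. Pdhx encodes a structural subunit of the pyruvate dehydrogenase complex and was picked with its values known. It was at 7.27 in the Iah1-KO pool and 7.41 in the Iah1-WT pool, a difference of -0.14, beside -0.13 for Apip. Both lay inside the spread of genes of their expression.

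**Figure D3:**
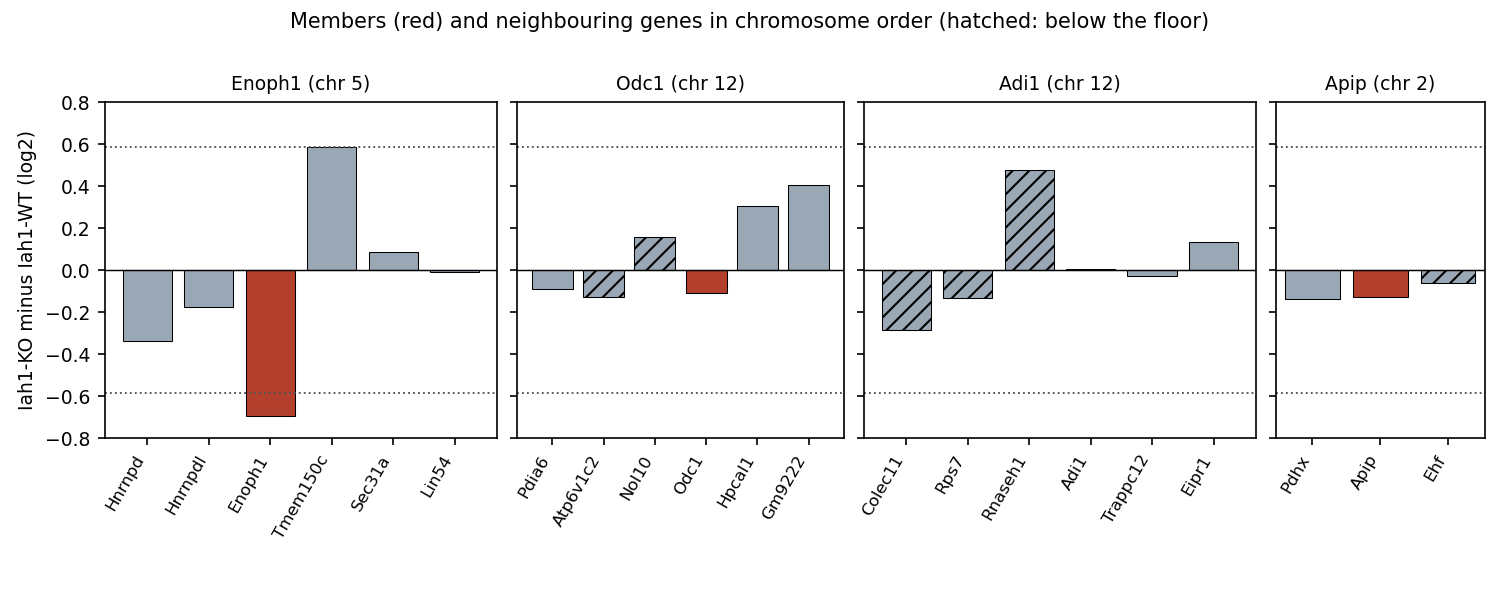
Iah1-KO minus Iah1-WT difference (log2) of Enoph1, Odc1, Adi1 and Apip (red) and of neighbouring protein-coding genes with a probe set of their own (grey), in chromosome order. Dotted lines mark 1.5-fold and hatching marks genes below the floor. Enoph1 at -0.69 stands beside Tmem150c at 0.58.

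Odc1 and Adi1 lie on chromosome 12, as Iah1 does, with 25 and 33 protein-coding genes between each of them and Iah1. Their surroundings are therefore given. Between Odc1 and Iah1, 6 genes passed the floor. Their median difference was 0.10, with a range from -0.76 to 0.40. The lowest was Gm6943, a predicted gene picked with its values known, at 6.21 in the Iah1-KO pool and 6.97 in the Iah1-WT pool, and it alone of the 6 was beyond 1.5-fold. On the other side of Odc1, Nol10, a nucleolar protein gene below the floor, differed by 0.16, Atp6v1c2, also below the floor, by -0.13, and Pdia6, a protein disulfide isomerase gene, by -0.09. The genes that follow Odc1 directly were Hpcal1, a neuronal calcium sensor family gene, and Gm9222, which differed by 0.30 and 0.40. Between Iah1 and Adi1, 10 genes passed the floor, and these had a median of -0.04, a range from -0.16 to 0.19 and 0 beyond 1.5-fold. Next to Adi1, Trappc12, a vesicle tethering factor, differed by -0.03, and Rnaseh1, below the floor in both pools, by 0.47.

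The genes around the pathway were examined through 10 lists. Of their 91 entries 82 were measured and 61 were at or above the floor, 31 of them above 0 and 30 below. None of the 61 was beyond 1.5-fold, against 0.43% of all expressed genes. List medians ranged from -0.09 to 0.25. Both ends came from lists with only 2 expressed genes each, polyamine breakdown and hypusination.

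**Figure D4:**
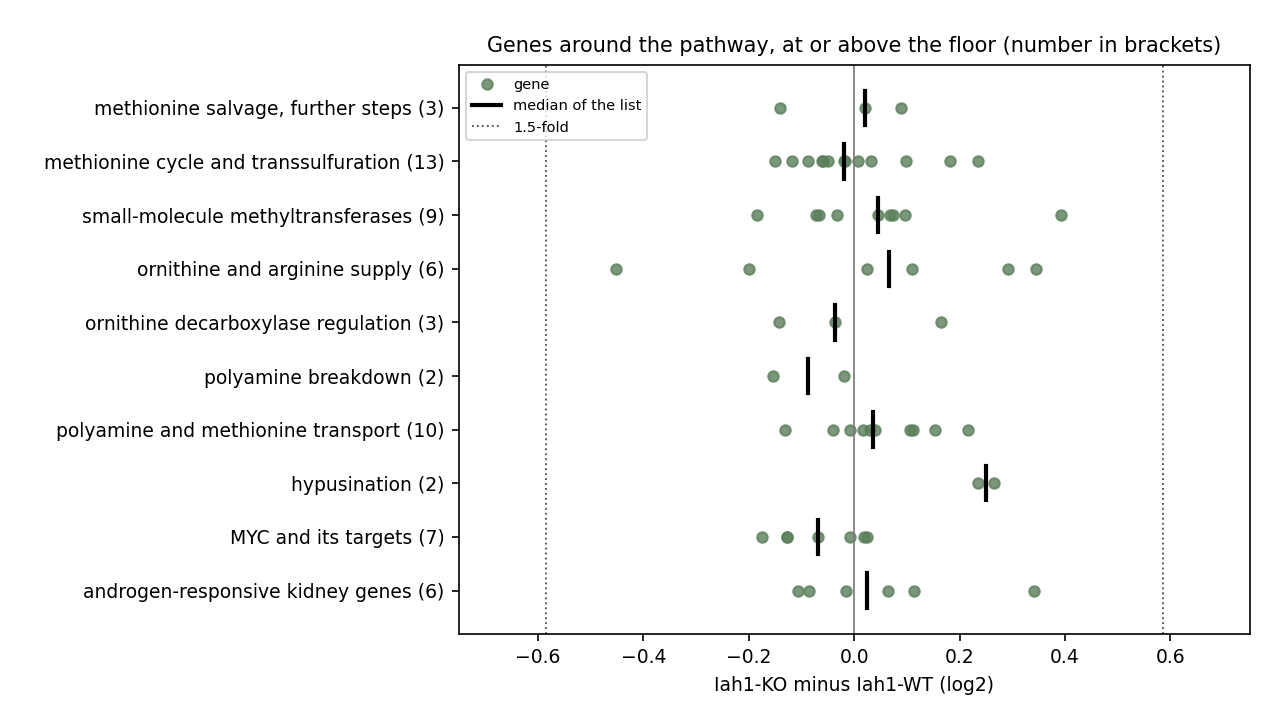
Iah1-KO minus Iah1-WT difference of each gene at or above the floor (points) and the list median (bars) for 10 lists around methionine salvage and polyamine synthesis. Dotted lines mark 1.5-fold, and all 61 points lie between them. Both hypusination genes are above 0, but Eif5a2 passed the floor only through the Iah1-KO value, which fixes its sign.

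Ornithine and arginine supply had 4 genes above 0, 2 below and a median of 0.07. Ass1, the argininosuccinate synthase of renal arginine synthesis, was at 5.79 in the Iah1-KO pool and 6.24 in the Iah1-WT pool, a difference of -0.45 against a robust SD of 0.18 for its expression. It passed the floor only through the Iah1-WT value, which fixes the sign of its difference. Asl, the lyase that follows it, was at 9.42 in the Iah1-KO pool and 9.13 in the Iah1-WT pool, a difference of 0.29 against a robust SD of 0.09 for its expression. Agmat, a ureohydrolase known as agmatinase, differed by 0.35, above the floor only in the Iah1-KO pool, and Gatm, which starts creatine synthesis from arginine, differed by -0.20. Oat, which links ornithine to glutamate and proline, differed by 0.02.

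The regulators of ornithine decarboxylase differed by small amounts. The antizyme gene Oaz1, whose product sends the enzyme to the proteasome, was at 6.88 in the Iah1-KO pool and 6.72 in the Iah1-WT pool, a difference of 0.16. Azin1, the inhibitor of antizyme, was at 8.52 in the Iah1-KO pool and 8.66 in the Iah1-WT pool, a difference of -0.14. Oaz2 had 2 probe sets, and the brighter one differed by -0.04. The list's median was -0.04, but 0.09 with the mean over probe sets, so its sign depended on this choice. In polyamine breakdown, Sat1 and Sat2, both named as spermidine/spermine acetyltransferases, differed by -0.02 and -0.15, and Smox, the spermine oxidase gene, was below the floor in both pools.

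Hypusination, in which spermidine is used to modify the translation factor eIF5A, had 2 of 4 genes at or above the floor, and both were higher in the Iah1-KO pool. Eif5a was at 7.79 in the Iah1-KO pool and 7.56 in the Iah1-WT pool, a difference of 0.23 against a robust SD of 0.13 for its expression. Eif5a2, its paralog, was at 6.12 in the Iah1-KO pool and 5.85 in the Iah1-WT pool, a difference of 0.27. It entered through the Iah1-KO value alone, which fixes the sign of its difference, so nothing is read from the shared direction. The modifying enzymes Dhps and Dohh, below the floor in both pools, differed by -0.10 and 0.17.

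The last step of salvage, in which an amino group returns methionine, is carried out by several transaminases. Kyat3 differed by -0.14 and Kyat1 by 0.09, and Aprt, which recycles the adenine that Mtap releases, by 0.02. In the methionine cycle and transsulfuration 5 of 13 genes were above 0 and 8 below, with a median of -0.02. Suox, the sulfite oxidase at the end of cysteine breakdown, was at 8.38 in the Iah1-KO pool and 8.14 in the Iah1-WT pool, a difference of 0.23. Mat2b, the regulatory partner of the Mat2a protein, differed by 0.18, Ahcyl2, a homolog of the adenosylhomocysteine hydrolase, by -0.15, and the methionine synthase gene Mtr by -0.12. Cbs and Cth, which lead homocysteine to cysteine, both differed by -0.02.

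Enzymes that spend S-adenosylmethionine on small molecules had 5 of 9 genes above 0 and a median of 0.05. Gamt, which makes creatine, was at 7.19 in the Iah1-KO pool and 6.79 in the Iah1-WT pool, a difference of 0.39. It was the largest difference among the 9 expressed genes of this list, against a robust SD of 0.14 for its expression. Pemt, of phosphatidylcholine synthesis and below the floor in both pools, differed by 0.48. Gatm, the enzyme before Gamt in creatine synthesis, was at 10.26 in the Iah1-KO pool and 10.46 in the Iah1-WT pool, so these consecutive genes had opposite signs. Gnmt, the glycine methyltransferase that uses up excess S-adenosylmethionine, differed by -0.18, Coq3 of ubiquinone synthesis by 0.10 and Hnmt, which methylates histamine, by 0.07.

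Transporters of polyamines and methionine had 7 of 10 genes above 0 and a median of 0.04. Slc22a2, a basolateral organic cation transporter of the proximal tubule, differed by 0.22, the amino acid transporters Slc7a8 and Slc6a19 by 0.15 and 0.11, and Atp13a3, a P-type ATPase linked to polyamine uptake, by -0.13. MYC and its targets had 2 of 7 genes above 0 and a median of -0.07. In this list Nop56 and the nucleolin gene Ncl, both of ribosome assembly, differed by -0.17 and -0.13, and the MYC antagonist Mxi1 and the MYC partner Max by -0.13 and -0.07. Myc itself was below the floor, at 5.38 in the Iah1-KO pool and 5.28 in the Iah1-WT pool.

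Odc1 was also set beside other genes that androgens raise in mouse kidney. Of the 6 that were measured, all expressed, 3 were above 0 and 3 below, and the median was 0.02. Gusb, the beta-glucuronidase gene, was at 7.95 in the Iah1-KO pool and 7.61 in the Iah1-WT pool, a difference of 0.34, while Kap, an abundant androgen-regulated kidney protein gene, was at 12.61 in the Iah1-KO pool and 12.62 in the Iah1-WT pool. Hsd11b1, the glucocorticoid-activating dehydrogenase gene, differed by 0.11 and Cyp2e1 by -0.11. The list therefore had no common direction, and Odc1, at -0.11, was just below its lowest gene, Cyp2e1.

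Markers of other kidney cells differed beside these values, and their part in them was not tested. The 7 principal cell markers, all expressed, had a median of 0.14, with 4 above 0 and 3 below. The water channel genes Aqp4 and Aqp2 differed most, by 0.57 and 0.49, while Scnn1b differed by -0.12. The summed level of all 7 (log2 of the sum of linear values) was 10.28 in the Iah1-KO pool and 10.11 in the Iah1-WT pool. The 6 intercalated cell markers had a median of -0.13 and a summed level of 10.22 in the Iah1-KO pool and 10.39 in the Iah1-WT pool. Among them the proton pump subunit gene Atp6v1g3 differed by -0.81, while Slc4a1 and Atp6v0d2 differed by 0.18 and 0.03. Of the 57 expressed markers of all cell types, Atp6v1g3 alone was lower by 1.5-fold or more, against 0.209% of all expressed genes. Markers below the floor are not counted here. Medians were -0.12 for the 5 expressed markers of the loop of Henle and 0.11 for the 7 endothelial ones, of which 6 were above 0. Of 7 macrophage markers 4 reached the floor, with a median of 0.26, and their summed level over all 7 was 9.29 in the Iah1-KO pool and 9.18 in the Iah1-WT pool. The expressed ones were the lysozyme gene Lyz2 at a difference of 0.63, Cx3cr1 at 0.41, Csf1r at 0.11 and C1qb at -0.01. Lyz2 alone of the 57 expressed markers was higher by 1.5-fold or more, against 0.222% of all expressed genes. Cx3cr1 passed the floor only through the Iah1-KO value, which fixes the sign of its difference and raises the median. Adgre1, a macrophage surface antigen gene, was below the floor, at 4.37 in the Iah1-KO pool and 5.10 in the Iah1-WT pool, a difference of -0.73. Cd68 and C1qa, also below the floor, differed by -0.23 and 0.04. The 15 proximal tubule markers summed to 15.30 in the Iah1-KO pool and 15.32 in the Iah1-WT pool.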

How the data were processed

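The authors deposited log2 values per probe set. The submitters' processing notes name RMA and, as software, Affymetrix Expression Console 1.3.0. RNA of 3 mice was pooled per array, per the series description. Targets were made from 100 ng of total RNA, per the labels' protocols. RMA includes quantile normalization, so a shift of most transcripts would not show, and dim probe sets show smaller differences than their transcripts have. The build behind the array annotation is not given in these sources.

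Of 41345 probe sets, 23521 carried exactly 1 gene symbol in GEO's platform annotation. The brightest was used per gene. Values were analysed with Python 3.11.15, numpy 2.4.6, pandas 2.3.3 and statsmodels 0.14.6. The robust SD, the loess correction and the fold threshold were checked on simulated differences for genes at or above the floor. Other steps were not checked in this way. The expression floor was log2 6 and the threshold 1.5-fold. Local ranges and robust SDs used the 500 genes nearest in mean expression, without a floor, as descriptions and not as tests. The number of arrays limits the precision.

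The members and lists were chosen with earlier results of these data known. Named were Iah1, the members, the genes on each side of Enoph1 (3), Odc1 and Adi1, paralogs of members, and up to 4 genes of each list with the largest difference; genes below the floor, the middle of a list and farther partners were named after their values were seen. Gene order and starts came from RefSeq (GRCm38.p6). Alternatives were other floors (log2 5, log2 7, none), centring on the median, loess (span 0.3), the mean over probe sets, probe sets with several symbols, thresholds of 1.2-fold and 2-fold, the mean of a list, and the members without Enoph1, which was added after the data were seen.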

Additional observations from a re-analysis of the deposited data

How the results depend on the processing

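The count of genes beyond 1.5-fold (16 lower and 17 higher in the Iah1-KO pool) changed with the floor, and so with the number of genes tested. It was 57 lower and 55 higher with a floor of log2 5, 6 lower and 4 higher with log2 7, and 316 lower and 221 higher with none. A threshold of 1.2-fold gave 289 lower and 411 higher, and 2-fold gave 3 lower and 1 higher. The member that was lower, Enoph1, was not counted with a floor of log2 7 or a threshold of 2-fold, where 0 members were lower. Its difference was -0.70 with median centring, -0.72 with the loess correction and -0.69 with the probe set alternatives. Mtap and Adi1 changed sign under the median centring and the loess correction, at sizes of no more than 0.01. The members' median of -0.05 was 0.00 without Enoph1, and their mean was -0.13. Of the values of the members' median, the lists and the counts, 12 moved further, all of them counts under other floors or thresholds. The remaining 113, and 27 of single members, include the median, mean and single-member values just given. They moved by less than the robust SD over genes (0.13 for a list) or, for a count, by no more than 1.5 times. No paired analysis was possible because each genotype has 1 array. With 1 array per genotype and several members near or below the floor, the variation between arrays behind the small differences is unknown.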
